A study of Drosophila melanogaster with 20 samples.

Results

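The fat body and the brain of flies fed a high sugar diet (HSD) were compared here, across all genes. The 10 libraries titled fat body HSD 1 to 5 and brain HSD 1 to 5 were taken out of the 20 libraries of the series, and gene levels were RPKM, which divides a gene's reads by its exon length and by the depth of the library. Symbols that named several entries were dropped, and genes with a mean of at least 1 RPKM over the 10 libraries were kept, which left 9315 of 13972 genes. The difference is given as fat body minus brain on the log2(RPKM + 1) scale, so that a positive value means a higher level in the fat body, and the pseudocount of 1 makes the difference of low genes appear smaller.

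All flies were wild type Oregon-R females with a listed age of 5 days. The HSD groups were listed with 5 days on the diet, and so were the 5 fat body and 5 brain libraries of flies on normal food (ND), which serve below only for a comparison of the tissue difference between diets. The libraries held poly(A) RNA sequenced on an Illumina HiSeq X instrument, and reads that mapped to 1 place were kept. Nothing in the labels says that the 5 libraries of a group came from separate animals or how many flies went into each, so the spread behind each p-value is that of these libraries and may be technical.

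The fat body of the adult fly is a loose tissue under the cuticle that stores fat and glycogen, makes yolk and blood proteins and secretes antimicrobial peptides, tasks that vertebrates divide between liver and adipose tissue. The brain takes up sugar from the blood through its glial sheath and holds the cells that make several insulin-like peptides, while the neighbouring corpora cardiaca make adipokinetic hormone, the counterpart of glucagon. The fat body answers both hormones. Each tissue as dissected can also hold other cells: oenocytes, muscle and ovary near the fat body, and eye, fat body or gland cells near the brain.

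The brain libraries held 22.6 to 46.2 M reads on genes and the fat body libraries 10.7 to 23.4 M. At these depths 3 reads on 1 kb of exon equal 0.065 to 0.133 RPKM in the brain and 0.128 to 0.280 RPKM in the fat body, floors that cover counting error only. Fat body library 4 held 401 genes with 1 to 3 reads and 8527 genes with any read, against at least 1048 and 10648 in the other fat body libraries, so its zeros are weak evidence of absence. A first principal component with 88.2% of the variance separated the tissues, with brain libraries between -124 and -99.6 and fat body libraries between 107 and 122. The median standard deviation of a gene was 0.39 on the log2 scale in the fat body and 0.11 in the brain.

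Most markers of the 2 tissues lay where the labels put them. The 6 neuron markers summed to 1950 to 2288 RPKM in the brain libraries and to 1.71 to 8.98 in the fat body libraries, with the highest fat body value in library 2. The 8 fat body markers summed to 40962 to 91731 RPKM in the fat body and to 403, 475, 566, 1805 and 3722 in the brain, where libraries 5 and 4 held the highest values. The 3 yolk protein genes made up most of these sums, with 37899 to 88451 RPKM in the fat body and 250 to 3428 RPKM in the brain. Apart from them, apolpp, Lsd-1, FASN1 and fit were higher in the fat body, while Lsp2 was not (difference -0.33). Brain library 4 also stood apart in the 6 photoreceptor markers, with 1379 RPKM against 68.8 to 83.5 in the other brain libraries, and in the 4 gut markers that were found, with 36.2 RPKM against at most 0.138. Of the 980 genes at least 4-fold higher in the fat body, 72.4% were higher in brain libraries 4 and 5 than in brain libraries 1 to 3, against 34.5% of all genes tested. Brain levels are therefore given by library for some of these genes. Others are given as mean and SD only. Among those, GstE9, Cyp6g1 and tobi were highest in brain libraries 4 and 5, so their brain means are not typical of libraries 1 to 3.

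Other cell types differed as well. The 4 oenocyte markers summed to 11229 to 24854 RPKM in the fat body and to 1.3 to 2.78 RPKM in the brain. The 5 muscle markers summed to 179 to 307 RPKM in the fat body and to 3.11 to 41.8 RPKM in the brain. The 8 ovary markers ran from 22.6 RPKM in fat body library 1 to 704 RPKM in library 2 and stayed between 3.98 and 5.52 RPKM in the brain. The 5 glia markers that were found summed to 126 to 201 RPKM in the fat body and to 1536 to 2049 in the brain, and the 3 hemocyte markers found to 10.7 to 23.1 and 64.9 to 70.1. Of the 4 male markers, 3 were at 0 in every fat body library and 2 in every brain library. In whole tissue a lower level can come from fewer cells of a type or from less RNA per cell, and these cannot be told apart here. What part these cells had in the results below was not tested.

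**Figure D1:**
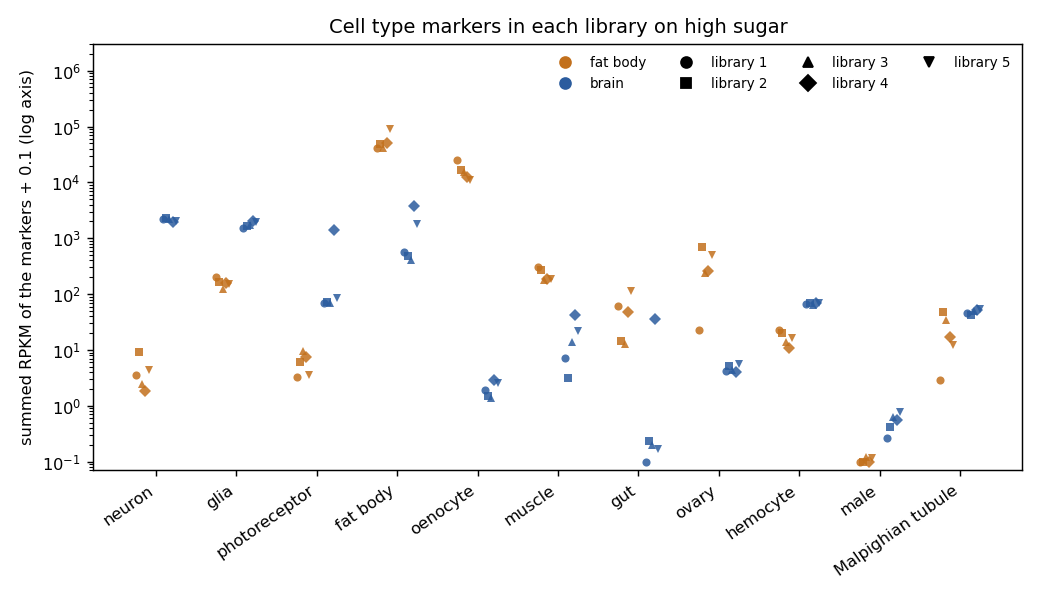
Summed RPKM of the marker genes of 11 cell types (log axis, 0.1 added) in each of the 5 fat body and 5 brain libraries on high sugar, with 1 symbol shape per library number. Neuron markers sat at 1.71 to 8.98 in the fat body and 1950 to 2288 in the brain, brain library 4 stood at 1379 for photoreceptor markers, and ovary markers spanned 22.6 to 704 in the fat body.

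Most genes differed between the tissues on high sugar. Of the 9315 genes tested with limma at a Benjamini-Hochberg adjusted p under 0.05, 6934 (74.4%) differed, 2531 of them (27.2%) higher in the fat body and 4403 (47.3%) higher in the brain. A difference of at least 4-fold was seen for 980 genes (10.5%) higher in the fat body and 1808 (19.4%) higher in the brain, and at least 64-fold for 68 and 193 genes. The 5 libraries of the higher tissue all lay above the 5 of the other for 2100 genes (22.5%) in the fat body and 3922 (42.1%) in the brain. With quantile normalization, which forces all libraries to 1 distribution, the split turned to 3968 higher in the fat body and 3268 higher in the brain. The median difference of all genes tested was -0.40, which moved to -0.15 with median-ratio rescaling and to 0.16 with quantile normalization, so the balance between the directions depends on the scaling. Of the 2381 genes not past the threshold, 1549 had a 95% interval within 1 log2 unit of 0. The counts of each gene list below are to be read against the shares of 27.2% and 47.3%.

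The fat body put its reads on few genes. Its 10 most abundant genes took 15.4 to 22.8% of reads against 4.59 to 5.10% in the brain, and its 100 most abundant took 36.6 to 45.4% against 18.8 to 19.5%. The number of genes at 1 RPKM or more was 7805 to 8386 in the fat body and 8630 to 9071 in the brain. The groups overlapped in none of these 3 measures, nor in the share of reads on yolk proteins. For each of the 4 measures a two-sided exact permutation test over the libraries gave p = 0.00794, the smallest it allows, and 0.00794 after adjustment over the 4. RPKM is scaled to the total reads of a library, so the 4 measures are not independent of one another.

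**Figure D2:**
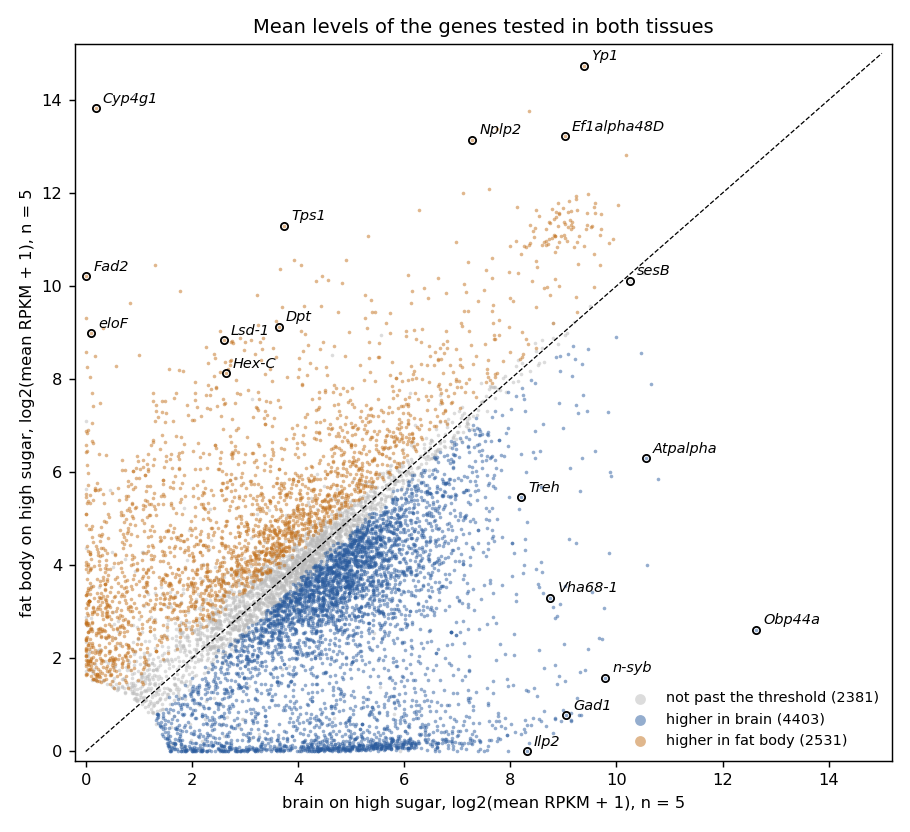
Mean level of each of the 9315 genes tested in brain (horizontal) and fat body (vertical) on high sugar, as log2(mean RPKM + 1) over 5 libraries each, with genes past the threshold in color and equal levels on the dashed line. Cyp4g1 and Obp44a lie farthest from the line in each direction, and Yp1 is near the top at a mean of 27318 RPKM in the fat body.

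The largest difference in the fat body was that of Cyp4g1, the cytochrome P450 that makes cuticular hydrocarbons from aldehydes in oenocytes. It stood at 22479.7, 15345, 13962, 10943 and 9792 RPKM in fat body libraries 1 to 5 and at 0.184, 0.096, 0.019, 0.213 and 0.171 RPKM in the brain libraries. No brain library reached 0.3 RPKM, a difference of 13.58 (SE 0.20, adjusted p = 2.5e-12). In fat body library 1 it was the most abundant gene of all.

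Other genes of hydrocarbon synthesis followed. Fad2, a desaturase of female hydrocarbons also called desatF, stood at 1669.6, 1140.2, 1027, 1095 and 991 RPKM in the fat body and at 0, 0, 0, 0.019 and 0 RPKM in the brain, a difference of 10.18 (SE 0.14). The elongase eloF stood at 642, 456, 397, 619.6 and 413 RPKM in the fat body and at 0.069, 0.234, 0, 0 and 0.046 RPKM in the brain, a difference of 8.86 (SE 0.16). Neither gene reached 0.3 RPKM in any brain library. CG16904 was at 0 reads in all 5 brain libraries and at 883, 692, 580.3, 578 and 439 RPKM in the fat body. FASN2 (v(2)k05816 in the files), one of the fatty acid synthases, differed by 7.47, with 207 ± 97.8 RPKM in the fat body and 0.079 ± 0.03 RPKM in the brain (mean ± SD, n = 5 each, as for all such values below). Of the 12 tested members of the oenocyte and hydrocarbon list, 11 were higher in the fat body and 0 in the brain, with a median difference of 4.85. In the brain the same P450 subfamily was represented by Cyp4g15, which was 101 ± 22.1 RPKM there and 10.4 ± 3.38 RPKM in the fat body, a difference of -3.2.

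Yolk proteins, which the fat body of females makes and the ovary takes up, were the most abundant secreted products. Yp1 stood at 20865, 23840.3, 22408, 24663 and 44812 RPKM in the fat body and at 194, 162, 118, 1963 and 896 RPKM in the brain. Fat body library 5 was far above the other fat body libraries, and brain libraries 4 and 5 were far above brain libraries 1 to 3. The difference was 6.16 (SE 0.71, adjusted p = 1.2e-05), and Yp2 and Yp3 differed by 6.12 and 5.95. Without brain libraries 4 and 5 the median of the 3 genes was 7.07 in place of 6.12, so the size of the difference depends on those libraries while its direction does not.

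Among blood proteins the picture was mixed by member. Of 16 genes of hemolymph storage and carrier proteins found, 12 passed the filter on low values, 8 were higher in the fat body and 1, the iron carrier Tsf1, was higher in the brain (1022 ± 143 RPKM against 479 ± 235 RPKM, difference -1.22). Apolipophorin (apolpp, Rfabg in the files), the core of the lipid carrier of the blood, was 1152 ± 365 RPKM in the fat body and 98.8 ± 34.8 RPKM in the brain, and Mtp, which loads lipid onto it, was 100.1 ± 13.2 RPKM and 15.8 ± 2.25 RPKM. Those differences were 3.53 and 2.59. GNBP3, a sensor of fungal glucans in the blood, differed by 5.36. The ferritin subunits Fer1HCH and Fer2LCH were higher in the fat body by 1.07 and 1.08, but after quantile normalization Fer1HCH missed the threshold at 0.08 and Fer2LCH turned to -0.17. The larval storage protein gene Lsp2 was low in both tissues, at 5.64 ± 8.6 RPKM in the fat body and 4.67 ± 3.24 RPKM in the brain, a difference of -0.33 that did not pass the threshold and changed sign in some alternatives.

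Genes of fat synthesis and storage were mostly higher in the fat body. Of 16 tested members 14 were higher in the fat body and 1 in the brain, with a median difference of 2.43. The cytosolic enzymes that build fatty acids led in level, with the desaturase desat1 at 3303 ± 289 RPKM in the fat body against 279.7 ± 78.4 RPKM in the brain, fatty acid synthase FASN1 (CG3523) at 953 ± 163 against 69.5 ± 13.3 RPKM and acetyl-CoA carboxylase ACC (CG11198) at 435 ± 74.2 against 44.9 ± 6.34 RPKM. Their differences were 3.59, 3.76 and 3.24. Malic enzyme (Men), which supplies NADPH, differed by 3.0.

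The lipid droplet protein Lsd-1, which controls access of lipases to stored fat, separated the tissues most within the list. It stood at 410.2, 421, 479, 423 and 545 RPKM in the fat body and at 1.72, 1.52, 1.8, 10.5 and 9.79 RPKM in the brain, with the highest brain values in libraries 4 and 5 and a difference of 6.58 (SE 0.45). The second droplet protein, Lsd-2, was 538 ± 56.9 RPKM in the fat body and 79.6 ± 20.3 RPKM in the brain, a smaller difference of 2.77. Both the enzyme that makes triglyceride, mdy (2.63), and the lipases that break it down, bmm (1.87) and Lip4 (3.87), were higher in the fat body. Lipin (CG8709), which makes diglyceride for this pathway, was the 1 member higher in the brain, with 81.3 ± 1.41 RPKM against 53.9 ± 6.93 RPKM and a difference of -0.59, which missed the threshold at -0.31 after median-ratio rescaling and at -0.52 within libraries 4 and 5.

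Fatty acid oxidation went the same way. Of 15 genes tested 14 were higher in the fat body and 1 in the brain, with a median of 2.57. The trifunctional protein subunit Mtpalpha (CG4389) was 190 ± 13.3 RPKM in the fat body and 18.3 ± 4.27 RPKM in the brain, and carnitine palmitoyltransferase (whd), the entry step of mitochondrial oxidation, was 163 ± 24.1 RPKM and 40.2 ± 5.75 RPKM. Those differences were 3.33 and 1.99. The peroxisomal oxidase Acox57D-d differed by 4.01 and the nuclear receptor Hnf4, which drives lipid oxidation genes, by 2.31. The exception was CG17544, annotated among acyl-CoA oxidases, at 6.17 ± 2.84 RPKM in the fat body and 31 ± 1.98 RPKM in the brain, a difference of -2.25.

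Trehalose, the main blood sugar of insects, is made in the fat body and split where it is used, and the genes of the 2 steps lay on opposite sides. Trehalose-6-phosphate synthase (Tps1) stood at 2897, 2456, 2673, 2042 and 2534 RPKM in the fat body and at 3.98, 2.81, 2.95, 31.1 and 21 RPKM in the brain. Brain libraries 4 and 5 were highest in the brain, and even those values were far below the lowest fat body value (difference 8.15, SE 0.58, adjusted p = 2.0e-07). Trehalase (Treh) stood at 45, 46.2, 41.1, 32 and 51.1 RPKM in the fat body and at 261, 261, 271, 332 and 349.8 RPKM in the brain, with no overlap and a difference of -2.75 (SE 0.14, adjusted p = 1.0e-08).

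Glycogen and gluconeogenic genes were higher in the fat body. Of the 14 genes of glycogen, trehalose and gluconeogenesis, 12 were higher in the fat body, with a median of 3.01. Phosphoenolpyruvate carboxykinase (Pepck), which opens gluconeogenesis, stood at 272, 436, 651, 149.6 and 851 RPKM in the fat body and at 3.17, 1.38, 1.85, 16.8 and 9.46 RPKM in the brain. The fat body values varied widely among libraries but did not overlap with the brain, and the difference was 6.17 (SE 0.63). Fructose bisphosphatase (fbp) differed by 5.7, UGP, which activates glucose for glycogen, by 4.02, phosphoglucomutase (Pgm) by 3.68, the branching enzyme AGBE (CG33138) by 3.06 and glycogen phosphorylase (GlyP) by 2.18. The target of insulin and adipokinetic hormone tobi, an alpha-glucosidase, was 141 ± 107 RPKM in the fat body and 5.76 ± 5.08 RPKM in the brain. Besides Treh, glucose-6-phosphatase (G6P, CG15400) was the other member higher in the brain, with 8.87 ± 0.472 RPKM against 0.088 ± 0.104 RPKM.

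Glycolytic genes showed no common direction. Of 14 glycolytic genes 6 were higher in the fat body and 3 in the brain, with a median of 0.18, and with quantile normalization 4 and 7 with a median of -0.23. Of all genes tested 27.2% were higher in the fat body and 47.3% in the brain. Their median moved the other way with quantile normalization, from -0.40 to 0.16. Hexokinase C (Hex-C), the isoform of the fat body, stood at 288, 265, 316, 233 and 293 RPKM there and at 4.44, 3.88, 3.06, 8.13 and 6.57 RPKM in the brain, a difference of 5.55 (SE 0.21). Hexokinase A (Hex-A) stood at 50.7, 59.8, 43.2, 61.3 and 26 RPKM in the fat body and at 152, 162, 169, 185 and 166 RPKM in the brain, a difference of -1.83 (SE 0.21). The 2 hexokinases thus went opposite ways, each with no overlap between tissues. Phosphofructokinase (Pfk) was higher in the brain (difference -1.04), and the shuttle enzyme Gpdh and lactate dehydrogenase (ImpL3) were higher in the fat body by 1.65 and 2.04.

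Sugar transporters split in the same manner. The trehalose transporter Tret1-1 was 343 ± 74.8 RPKM in the fat body and 103 ± 17 RPKM in the brain, a difference of 1.72. The glucose transporter Glut1 stood at 0.311, 3.32, 4.05, 3.48 and 1.29 RPKM in the fat body and at 74.2, 82, 65.3, 46.8 and 55.7 RPKM in the brain, a difference of -4.37 (SE 0.36). All 7 genes of the pentose phosphate pathway and NADPH supply were higher in the fat body with a median of 3.68, led by Zw (59.8 ± 10.9 against 2.19 ± 2.16 RPKM), the glucose-6-phosphate dehydrogenase at its entry, and Pgd (264 ± 40.1 against 12.8 ± 5.83 RPKM), the next dehydrogenase.

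**Figure D3:**
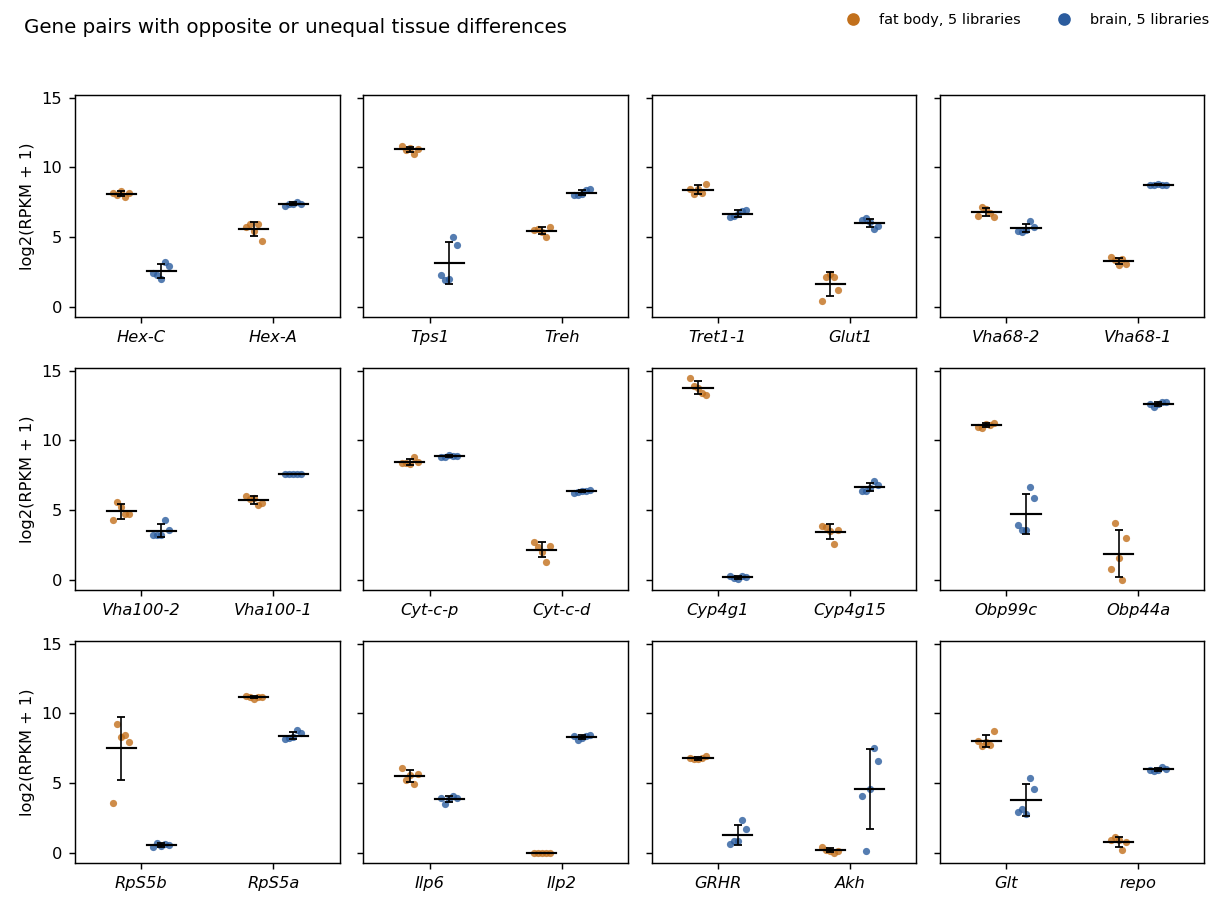
Levels of 12 pairs of genes on high sugar as log2(RPKM + 1), with 1 point per library, the mean as a bar and the SD as whiskers (n = 5 per tissue). The pairs were chosen after their values were seen and include paralogs (Hex-C and Hex-A, Vha68-2 and Vha68-1, Cyp4g1 and Cyp4g15), and in most the 2 genes are high in opposite tissues; Cyt-c-p and RpS5a are high in both.

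Genes of amino acid breakdown went both ways. Of 20 genes tested 13 were higher in the fat body and 5 in the brain, with a median of 1.39. Phenylalanine hydroxylase (Hn, 5.3), tryptophan oxygenase (v, 4.99) and glycine N-methyltransferase (Gnmt, CG6188, 5.53) were higher in the fat body, and in each the brain values were under 23 RPKM and highest in library 4. Proline dehydrogenase (slgA) was 228 ± 4.09 RPKM in the brain and 10.9 ± 6.59 RPKM in the fat body, and the GABA transaminase Gabat (CG7433) was 371 ± 27.9 and 10.5 ± 6.17 RPKM. Glutamate dehydrogenase (Gdh) was higher in the brain (difference -1.3).

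Most antimicrobial and immune-induced peptides were higher in the fat body, which releases them into the blood on infection. Of 25 members tested 15 were higher in the fat body and 0 in the brain, with a median of 3.36. Diptericin (Dpt) stood at 63.5, 160, 212, 793 and 1559 RPKM in the fat body and at 29.3, 1.01, 0.178, 25.1 and 1.66 RPKM in the brain, a difference of 5.81 (SE 1.12, adjusted p = 7.0e-04). Both tissues varied widely among libraries, and the groups did not overlap. DptB (5.47), AttC (5.67), Mtk (4.37) and the Toll-induced peptides IM3 (6.33) and IM4 (5.89) were higher in the fat body as well. Drosomycin (Drs) stood at 59.3, 65.1, 113, 3.12 and 1579 RPKM in the fat body and at 42.6, 18.6, 6.27, 27.4 and 25.5 RPKM in the brain, with overlap, and its difference of 1.86 did not pass (adjusted p = 0.2). Without fat body library 4 it was 2.92 and passed, and the list then counted 22 genes higher in the fat body in place of 15.

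Among recognition proteins and proteases upstream of Toll, PGRP-SA (4.11), PGRP-SD (4.1), modSP (4.12), psh (4.37) and SPE (4.44) were each at least 16-fold higher in the fat body, while the protease grass (0.32, adjusted p = 0.32) and the Toll ligand spz (0.48, adjusted p = 0.11) did not pass. With quantile normalization both passed (1.12 each), as did grass without fat body library 4 (0.56) and spz without fat body library 1 (0.64). Of the 11 tested genes of the prophenoloxidase and protease cascade, 8 were higher in the fat body and 1, prophenoloxidase 2 (PPO2, CG8193), in the brain (difference -0.78). That call was lost with median-ratio rescaling (-0.50), with quantile normalization (-0.23) and within libraries 4 and 5 (-0.40). The 4 Turandot stress peptides that passed the filter were all higher in the fat body (median 4.47, and 6.02 without brain libraries 4 and 5). TotA was 442 ± 214 RPKM in the fat body, and in the brain it was below 5 RPKM in libraries 1 to 3 and above 92 RPKM in libraries 4 and 5.

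Detoxification genes showed no common direction, with 11 of 26 higher in the fat body, 7 higher in the brain and a median of 0.03. For all genes tested the shares were 27.2% and 47.3% and the median -0.40. Cyp6g1, known for DDT resistance, was 372 ± 69.3 RPKM in the fat body and 4.34 ± 4.09 RPKM in the brain, and GstE9 was 168 ± 43.7 and 3.26 ± 4.12 RPKM. GstD9 was the reverse with 3.05 ± 0.657 RPKM in the fat body and 108 ± 11.6 RPKM in the brain, as was the glucuronosyltransferase Ugt35b with 3.16 ± 1.19 and 148 ± 42.6 RPKM. Cyp28d1 was higher in the brain (difference -1.78). Over the cytochrome P450 family as a whole, 35 of 59 tested members were higher in the fat body and 13 in the brain.

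Insulin-like peptides divided between the tissues by member. Ilp2, made by the insulin-producing cells of the brain, was at 0 reads in all 5 fat body libraries and at 339, 276, 301, 326 and 341 RPKM in the brain, at least 1020-fold higher against a floor of 3 reads in each fat body library. Ilp3 was 36 ± 2.52 RPKM in the brain and Ilp5 66.2 ± 11.2 RPKM, and each was above 0 in only 1 fat body library. Ilp6, a member made by fat body, stood at 68.1, 36.3, 46.5, 29.3 and 50.3 RPKM in the fat body and at 14, 10.6, 13.7, 15.6 and 14.1 RPKM in the brain, with no overlap and a difference of 1.64 (SE 0.21, adjusted p = 2.5e-05). Ilp8 (CG14059) was also higher in the fat body, by 2.07 (SE 0.56). It was low and uneven there, from 0.576 RPKM in library 1 to 17.7 RPKM in library 3, against at most 0.147 RPKM in the brain.

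Of the binding proteins, ImpL2, a secreted inhibitor of insulin-like peptides, stood at 132, 108, 90.3, 70.4 and 73 RPKM in the fat body and at 24.5, 19.5, 28, 49.3 and 34.4 RPKM in the brain. The difference was 1.6 (SE 0.25, adjusted p = 1.5e-04) and missed the threshold at 0.78 within libraries 4 and 5. The secreted decoy receptor Sdr (CG3837) was higher in the brain, with 23.9 ± 2.58 RPKM against 0.782 ± 0.653 RPKM.

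The insulin receptor gene did not pass the threshold. InR stood at 11.6, 6.61, 6.21, 2.25 and 3.67 RPKM in the fat body and at 7.01, 7.61, 7.79, 7.36 and 5.98 RPKM in the brain, and the groups overlapped (difference -0.35, SE 0.31, adjusted p = 0.32). Without fat body library 1 the difference was -0.60 and passed (adjusted p = 0.0499). The sign was not stable, with 0.35 after quantile normalization, 0.063 within libraries 1 to 3 and 0.12 without fat body libraries 4 and 5. Of the 21 genes of the insulin and TOR pathway 5 were higher in the fat body and 11 in the brain, with a median of -0.35. These became 5 and 7 with a median of -0.10 after median-ratio rescaling, and 7 and 5 with a median of 0.27 after quantile normalization. Among all genes tested 27.2% were higher in the fat body and 47.3% in the brain, with a median of -0.40. That median moved to -0.15 and 0.16 under the same scalings, in that order. Neither the balance of directions nor its shift therefore set this list as a whole apart from the average gene. The 3 transcriptional and growth effectors foxo (1.7), S6k (1.51) and Thor (4.87), a FOXO target that restrains translation, were higher in the fat body. The adaptor dock (-2.62) was higher in the brain.

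Adipokinetic hormone and its receptor lay on opposite sides. The receptor AkhR (GRHR in the files) stood at 110.2, 103, 105, 109 and 125 RPKM in the fat body and at 0.553, 0.784, 0.809, 4.1 and 2.29 RPKM in the brain, a difference of 5.52 (SE 0.30). The hormone gene Akh stood at 0.35, 0.174, 0.113, 0 and 0.08 RPKM in the fat body and at 15.8, 0.116, 22.5, 179 and 96.3 RPKM in the brain. Its brain values ran from the fat body's level in library 2 to 179 RPKM in library 4, and the difference of -4.39 (SE 1.12, adjusted p = 0.0043) fell short of the threshold within libraries 1 to 3 at -2.65 and with limma-voom on recovered reads at -6.80.

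Of the 10 tested genes of sugar sensing and adipokinetic hormone signaling, 6 were higher in the fat body, 2 were higher in the brain and 2 did not pass. The sugar-responsive transcription factor sug stood at 133, 117, 139, 119 and 173 RPKM in the fat body and at 0.457, 0.744, 0.659, 3.51 and 1.93 RPKM in the brain, a difference of 5.92 (SE 0.29). Mio, an older name of the sugar-sensing transcription factor Mondo, differed by 0.38 and its partner bigmax by 1.41, while the fructose receptor Gr43a, at -0.15 (adjusted p = 0.73), did not pass. Without fat body library 4 Gr43a was at -0.52 and passed, and with quantile normalization it was at 0.71 and did not. CCHamide-2 (CG14375), a nutrient-dependent peptide of the fat body that acts on brain insulin cells, was 123 ± 21.6 RPKM in the fat body and 13.8 ± 3.63 RPKM in the brain, and the activin-like ligand daw was 52.6 ± 7.48 and 5.73 ± 2.56 RPKM.

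The brain's largest difference was that of Obp44a, a member of the odorant-binding protein family. It stood at 6101, 5469, 6385, 6802 and 7078 RPKM in the brain, where it was the most abundant gene in every library, and at 0.681, 15.9, 1.97, 0 and 7.09 RPKM in the fat body. Fat body library 2 held the highest of those values, and the difference was -10.75 (SE 0.65, adjusted p = 4.8e-08). The next in size were CG14989 (-8.74), CG12239 (-8.57) and miple (-8.56), a fly relative of the growth factor midkine. Members of the family of Obp44a were among the abundant genes of the fat body, with Obp99c at 2172 ± 220.4 RPKM there and 39.1 ± 40.2 RPKM in the brain and Obp99a at 227 ± 78.7 and 4.51 ± 4.28 RPKM. Of the 14 family members tested 7 were higher in the fat body and 4 in the brain.

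Genes of the synapse were low in the fat body. All 21 tested genes of synaptic vesicles and release were higher in the brain, with a median of -4.83, as were all 25 voltage-gated channel genes (-5.24), all 21 transmitter receptors (-5.51), all 18 genes of transmitter synthesis and transport (-5.52) and all 24 peptide and amine receptors (-3.76). Among all genes tested 47.3% were higher in the brain. The 21 transmitter receptors summed to 6.95 to 12.94 RPKM in the fat body libraries. A gene with a fat body mean under 1 RPKM passed the filter only through a higher brain level. For such genes the direction was fixed in advance, so these counts are partly set by the filter. The same limit applies to the neuropeptide, neuron and glia lists below, and in reverse to genes low in the brain. Within the synaptic list stnA and stnB held identical values and count as 1 measurement. The calcium sensor Syt1 stood at 524, 553, 496, 433 and 469 RPKM in the brain and at 0.21, 1.87, 0.135, 0 and 0.667 RPKM in the fat body, a difference of -8.41 (SE 0.26). The vesicle and membrane fusion proteins n-syb and Snap25 differed by -8.27 and -8.45, and complexin (cpx), Rab3 and Syt4 by -7.26, -7.45 and -7.63.

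Genes of all the main transmitters were higher in the brain. Gad1, which makes GABA, stood at 536, 549.9, 534, 503 and 521 RPKM in the brain and at 0.017, 3.12, 0.033, 0 and 0.418 RPKM in the fat body, where library 2 held the highest value. Acetylcholine synthesis (Cha) was 123 ± 10.5 RPKM in the brain, glutamate loading (VGlut) 133 ± 17.8 RPKM, and the decarboxylase of dopamine and serotonin synthesis (Ddc) 204 ± 19.1 RPKM, each below 4 RPKM in every fat body library. The histamine enzyme Hdc was low, at 3.53 ± 0.823 RPKM. Among receptors the nicotinic subunit nAcRbeta-64B (373 ± 40.5 RPKM) and the GABA receptor Rdl (86.1 ± 22.1 RPKM) differed by -7.93 and -6.16. Among channels and their partners qvr, which modulates the Shaker channel, differed by -7.9 and the sodium channel para by -5.29; para was 53.4 to 65 RPKM in brain libraries 1 to 3 and 28.5 to 29.4 in libraries 4 and 5.

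Neuropeptide genes had the lowest median of the lists with at least 3 tested members, -6.24, with 19 of 24 higher in the brain and 3 higher in the fat body. The feeding peptide npf stood at 183, 174, 207, 177 and 193 RPKM in the brain and at 0, 0, 0, 0 and 0.075 RPKM in the fat body. Short neuropeptide F (sNPF, 223 ± 12.3 RPKM), drosulfakinin (Dsk, 171 ± 18.8 RPKM) and hugin (hug, 166 ± 16.2 RPKM) were each below 0.5 RPKM in every fat body library, and corazonin (Crz) was at 0 reads in all of them. The peptide gene capa differed by -6.58, with 9.01 and 7.0 RPKM in fat body libraries 2 and 5 and under 0.1 RPKM in the other 3. The 3 genes higher in the fat body were CCHamide-2, ETH and Nplp2. Nplp2 is named for a neuropeptide-like precursor, and it stood at 8542, 6337, 6083, 13009 and 11301 RPKM in the fat body and at 34.4, 31.5, 27.9, 464 and 216 RPKM in the brain, where libraries 4 and 5 were highest (difference 6.75, SE 0.75).

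Of the 25 neuron markers 24 were higher in the brain (median -5.39), elav among them at 73.9 ± 11.4 RPKM against 0.825 ± 0.289 RPKM. The exception was rogdi, with 51.2 ± 11.2 RPKM in the fat body and 38.4 ± 1.11 RPKM in the brain, which missed the threshold without brain libraries 4 and 5 at 0.40. Glia markers were higher in the brain in 12 of 14 genes with a median of -5.07. The glial transcription factor repo stood at 61.2, 58.7, 60.4, 70.9 and 63.7 RPKM in the brain and at 0.857, 1.25, 0.887, 0.15 and 0.741 RPKM in the fat body. The cortex glia protein wrapper and the transporter Eaat2 differed by -6.65 and -6.13, while glutamine synthetase Gs2 was also found in the fat body at 63.7 ± 17.1 RPKM against 935 ± 159 RPKM in the brain. Glutactin (Glt), a basement membrane protein placed in that list, was higher in the fat body by 4.25.

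Several eye genes were high in 1 brain library only. The main rhodopsin ninaE stood at 1.37, 0.996, 3.74, 1205 and 18.8 RPKM in brain libraries 1 to 5, far highest in library 4. It was at 0 in 4 fat body libraries and at 0.027 RPKM in the fifth. The difference was -3.8 (adjusted p = 0.039), and -2.19 without brain library 4, and it missed the threshold in 12 of the alternatives tried. Arrestin 2 (Arr2) stood at 0.753, 2.92, 1.69, 771 and 131 RPKM in the brain and at 0 reads in the fat body, and its difference of -4.17 became -2.81 without brain library 4. It missed the threshold in 6 alternatives, among them the fits without fat body library 2, fat body library 5 or brain library 5 (-3.45). Without brain libraries 4 and 5, 13 of the 30 eye genes tested still passed the filter on low values and 11 of these were higher in the brain, among them the G protein subunit Ggamma30A (519.7 ± 47.6 RPKM in the brain).

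Clock genes were found in both tissues. Of 9 genes 3 were higher in the fat body and 4 in the brain, near the shares of all genes tested (27.2% and 47.3%). The repressor per was higher in the brain (difference -2.09), while vri and the photoreceptor cry were higher in the fat body by 1.34 and 0.54. The repressor tim was 12.8 ± 6.11 RPKM in the fat body and 21.7 ± 5.84 RPKM in the brain, a difference of -0.78 that passed although the groups overlapped. It missed the threshold in 7 alternatives, among them median-ratio rescaling (-0.51), quantile normalization (-0.20) and the fits without fat body library 2 (-0.63), fat body library 4 (-0.67) or brain library 1 (-0.64).

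**Figure D4:**
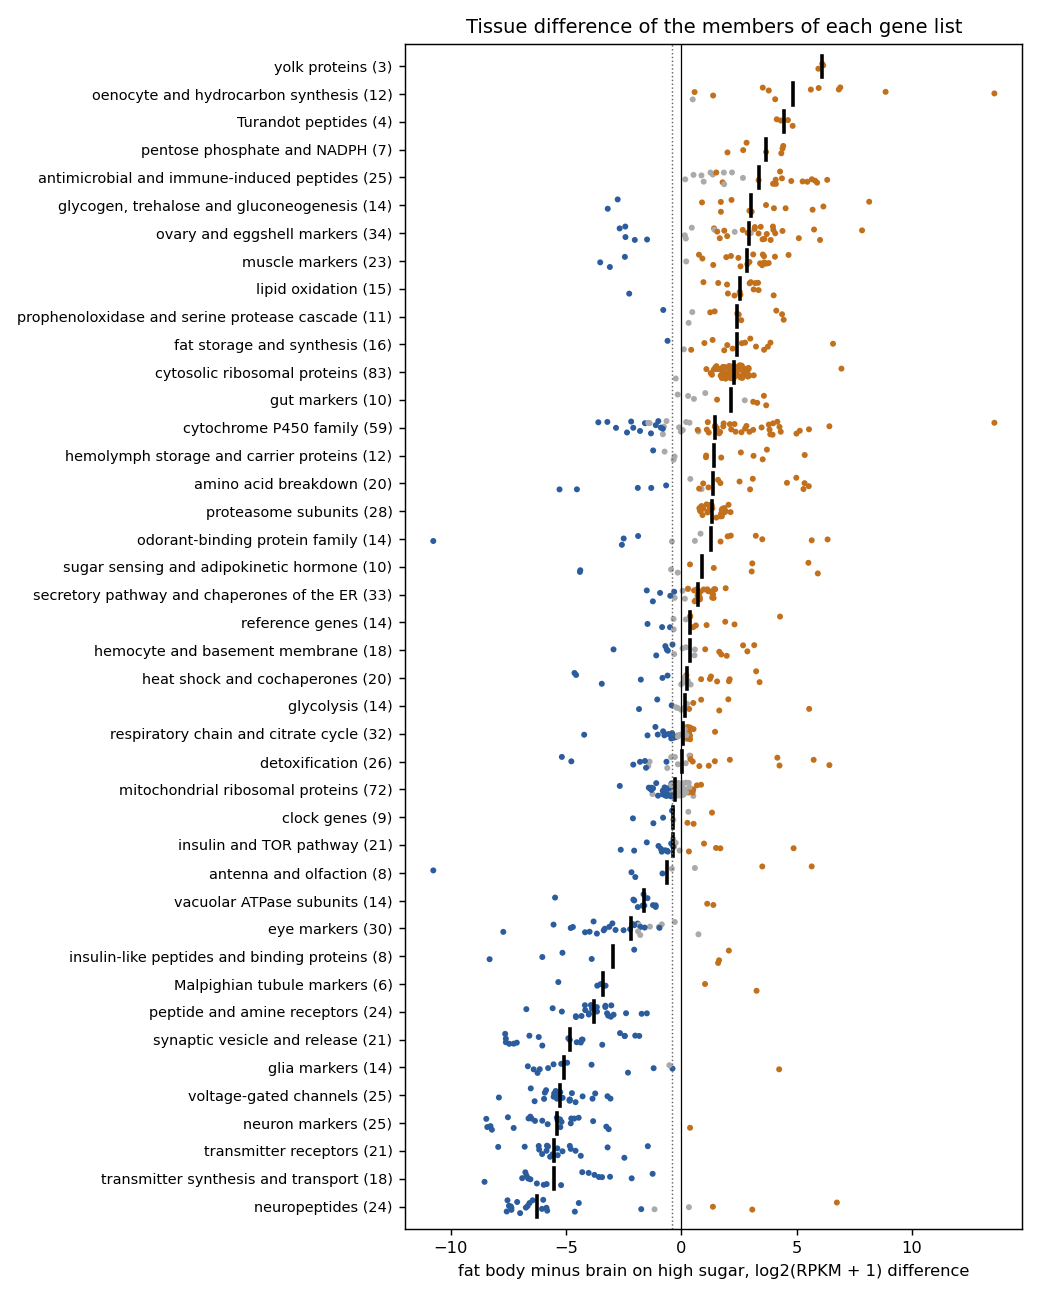
Difference between fat body and brain on high sugar for each tested member of the gene lists with at least 3 tested members (number in parentheses), with genes past the threshold in orange (higher in the fat body) or blue (higher in the brain) and others in grey. Black bars mark list medians, from -6.24 for neuropeptides to 6.12 for yolk proteins, and the dotted line marks the median of all genes tested, -0.40.

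Housekeeping machinery was not equal between the tissues. Of 83 cytosolic ribosomal protein genes tested 82 were higher in the fat body and 0 in the brain, with a median of 2.28. The list fell to a median of 0.81 with quantile normalization, with 63 higher in the fat body and 5 in the brain. The median of all genes tested rose instead, from -0.40 to 0.16. RpL13A was 3539 ± 209.7 RPKM in the fat body and 473 ± 87.2 RPKM in the brain, RpL32 1888 ± 139 and 384 ± 74.7 RPKM, and RpL29 was higher by 1.09 but lower by quantile normalization at -0.67. The elongation factor gene Ef1alpha48D, which delivers tRNA to the ribosome, was 9546 ± 584 and 520 ± 222 RPKM, a difference of 4.29. Of 14 genes often used as references in quantitative PCR, 8 were higher in the fat body and 3 in the brain, actin Act5C among the latter at 705 ± 34.6 RPKM against 403 ± 77.7 RPKM.

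The paralog RpS5b, known from the ovary, stood at 10.9, 617, 317, 352 and 246 RPKM in the fat body and at 0.323, 0.625, 0.394, 0.569 and 0.505 RPKM in the brain, while RpS5a was 2308 ± 125 RPKM in the fat body and 344 ± 64.9 RPKM in the brain. The level of RpS5b in fat body library 1 was far below the others, as were those of osk and dhd, genes of the female germ line. In the fat body osk stood at 3.08, 256, 98.6, 163 and 67.1 RPKM and dhd at 23.6, 538, 1023, 1007 and 139 RPKM, against at most 0.008 and 0.413 RPKM in the brain. The chorion gene Cp38 was 33.3 ± 55.3 RPKM in the fat body and at 0 reads in every brain library, and its difference missed the threshold in 5 alternatives, among them the fit without fat body library 3. Of 34 tested ovary and eggshell genes 23 were higher in the fat body and 5 in the brain, the latter Cp7Fa, Cp7Fb, Cp7Fc, gus and stau.

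The direction of mitochondrial ribosomal proteins depended on the scaling. Of 72 genes 6 were higher in the fat body and 26 in the brain, with a median of -0.27. With median-ratio rescaling the counts were 17 and 11 with a median of 0.00, and with quantile normalization 35 and 7 with a median of 0.34. The median of all genes tested moved likewise, from -0.40 to -0.15 and 0.16, so the shift is not particular to this list. Without brain libraries 4 and 5 they were 4 and 16, and without fat body libraries 4 and 5 they were 10 and 31. The largest difference was that of mRpS5, 193 ± 12.3 RPKM in the brain and 30.3 ± 6.81 RPKM in the fat body, and mRpS9 was higher in the fat body by 0.86. The respiratory chain and citrate cycle showed no common direction, with 11 of 32 higher in the fat body, 12 higher in the brain and a median of 0.07. All genes tested had shares of 27.2% and 47.3%. The counts were 16 and 7 with median-ratio rescaling and 4 and 21 with quantile normalization, where the median was -0.41. That last shift ran against the median of all genes tested, which rose to 0.16 with quantile normalization. Succinate dehydrogenase subunit SdhA was higher in the brain (difference -1.46) and the succinyl-CoA synthetase subunit skap in the fat body by 1.47. Of the cytochrome c genes, Cyt-c-p was 357 ± 58.2 RPKM in the fat body and 465 ± 23.2 RPKM in the brain, but Cyt-c-d was 3.69 ± 1.55 and 81.3 ± 4.86 RPKM. The ADP/ATP carrier sesB was 1109 ± 158 RPKM in the fat body and 1216 ± 90.9 RPKM in the brain (difference -0.14, adjusted p = 0.26, 0.14 with median-ratio rescaling, and -1.79 with quantile normalization, which passed).

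Protein turnover and acid transport went in opposite directions. All 28 tested proteasome subunits were higher in the fat body, from 0.79 for Rpn5 to 2.14 for Pros28.1, with a median of 1.34. Of the 14 subunits of the vacuolar proton pump, which fills synaptic vesicles and acidifies lysosomes, 12 were higher in the brain with a median of -1.61. The 2 exceptions were paralogs of subunits on the brain's side, and outside the list VhaM9.7-1 was higher in the fat body by 0.75 while VhaM9.7-2, at -0.22, did not pass. The A subunit Vha68-1 stood at 432, 422, 446, 423 and 434 RPKM in the brain and at 10.8, 9.08, 7.12, 10 and 7.43 RPKM in the fat body, a difference of -5.47 (SE 0.11). Its paralog Vha68-2 stood at 43.1, 40.8, 45.3, 68.9 and 51.8 RPKM in the brain and at 91.7, 141, 125, 107 and 86.9 RPKM in the fat body, a difference of 1.13 (SE 0.17). The a subunits Vha100-1 and Vha100-2 differed by -1.88 and 1.39, and the B subunit Vha55 by -1.6.

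Genes of the secretory pathway were higher in the fat body in 24 of 33 cases and in the brain in 5, with a median of 0.75. The chaperone Gp93 of the endoplasmic reticulum was 214 ± 51.6 RPKM in the fat body and 54.5 ± 5.55 RPKM in the brain. Heat shock genes split, with 9 of 20 higher in the fat body and 6 higher in the brain. The shares of all genes tested were 27.2% and 47.3%. The constitutive chaperone Hsc70-4 was 2148 ± 409.8 RPKM in the fat body and 495 ± 63.9 RPKM in the brain, and the small heat shock proteins Hsp26 and Hsp23 went opposite ways (3.4 and -3.44). Hsp67Bc was 24 ± 1.35 RPKM in the brain and above 0 in only 1 fat body library.

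Genes of muscle, blood cells and gut also differed between the tissues. Of 23 muscle genes 19 were higher in the fat body and 3 in the brain, with Mhc at 54 ± 20.1 against 5.3 ± 4.93 RPKM and Act57B at 167 ± 43.6 against 8.2 ± 8.47 RPKM, while arginine kinase (Argk), which buffers ATP in muscle and nerve, was higher in the brain (difference -3.09). The fat body transcription factor srp, also active in blood cells, differed by 3.17 and the collagen IV chains vkg and Cg25C by 1.74 and 1.97, but the blood cell peroxidase Pxn was higher in the brain (difference -2.93). Of 10 tested gut genes 5 were higher in the fat body and 0 in the brain. The digestive protease Jon65Aiv was 27.1 RPKM in brain library 4 and under 0.1 RPKM in the other brain libraries. Without brain libraries 4 and 5, 8 of the 10 gut genes were higher in the fat body, and without fat body libraries 4 and 5 only 2 of the 9 that passed the filter.

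The tissue difference on high sugar was compared with that on normal food. No libraries were shared between the 2 comparisons. Of the normal food libraries, fat body 4 and 5 held only 319 and 95 genes with 1 to 3 reads. Over 9129 genes tested on both diets the 2 differences had a Pearson r of 0.989 across genes, which are not independent replicates, and the median absolute gap between them was 0.22. Of the 2484 genes higher in the fat body on high sugar 2005 (80.7%) were also called on normal food, and these were 94.8% of the 2115 called there. Of the 4381 genes higher in the brain on high sugar 4229 (96.5%) were called on normal food, 89.1% of the 4747 called there. On normal food 23.2% of 9219 genes were higher in the fat body and 51.6% in the brain. Only CG12204 was called in opposite directions, a gene named after its values were seen.

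No gene passed the test of the difference between diets. In the fit of all 20 libraries 0 of 9280 genes (0%) had an interaction of tissue and diet at an adjusted p under 0.05, and the smallest adjusted p was 0.772, while 598 genes (6.44%) had an unadjusted p under 0.05. Cyp4g1 differed by 13.58 on high sugar and 11.47 on normal food, an interaction of 2.11 (SE 1.29, adjusted p = 0.807). ImpL2 differed by 1.6 and 0.44 (interaction 1.16, SE 0.42) and Tsf1 by -1.22 and 0.34 (interaction -1.55, SE 0.55), each with an adjusted p of 0.772. A p that misses the threshold does not show that the tissue difference is the same on both diets.

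**Figure D5:**
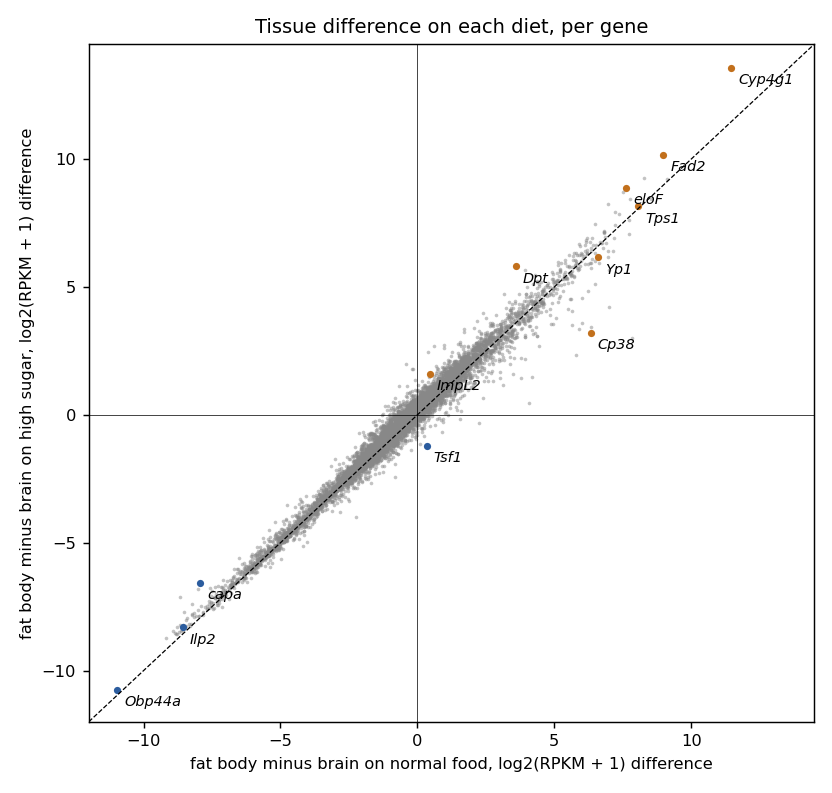
Difference between fat body and brain in log2(RPKM + 1) on normal food (horizontal) and on high sugar (vertical) for each of 9129 genes tested on both diets (5 libraries per tissue and diet), with equal differences on the dashed line and labelled genes in orange (higher in the fat body) or blue (higher in the brain). Points follow the line (r = 0.989), and Cyp4g1 lies at 11.47 and 13.58.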

How the data were processed

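RPKM values per gene were deposited by the authors, 1 table per library. Per the submitters' processing notes, reads were aligned with TopHat to dm3; versions, the counting tool and the annotation are not given in the sources used here. The 15080 entries were reduced to 13972 genes by dropping 188 repeated symbols with 1107 entries (at most 0.189% of reads) and 1 entry whose symbol differed between tables. Genes with a mean of at least 1 RPKM over the 10 libraries were tested on log2(RPKM + 1) with limma 3.58.1 in R 4.3.3. Variances were moderated with a mean trend, and Benjamini-Hochberg adjustment was made over all genes tested. The fit was checked on simulated data with the brain's means and spread in both tissues and known changes added to some genes. The median gene SD was 0.11 in the brain and 0.39 in the fat body, so that check does not cover the fat body's wider spread. The interaction of tissue and diet was fitted on all 20 libraries. Whole reads were recovered from the RPKM steps and exon lengths, with 99.0% of 224793 values within 0.01 of a whole read; limma-voom on those reads called 2469 genes higher in fat body and 4548 higher in brain. Depths are totals of recovered reads.

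The genes and lists were chosen with earlier results of these data known. Genes are named by rule: the 15 largest differences per direction without overlap, up to 5 largest and 2 smallest per list, the 10 most abundant per tissue, stable abundant genes, and a fixed set of hormone, nutrient and marker genes; 44 further genes and the gene pairs plotted were chosen after their values were seen. Current gene names follow the RefSeq annotation of Release 6, used for names only. Alternatives covered pseudocounts, filters, scaling, read-based testing, a replicate block and left-out libraries.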

Additional observations from a re-analysis of the deposited data

Results flagged for a closer look

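In 102 groups of 5 libraries checked for a library far from the others, 16 values stood apart. The cutoff flags about 1 in 20 groups when values are normally distributed. It always flags a group in which only 1 library is above 0, and several of the groups share genes. The number flagged can therefore not be set against that rate. Brain library 4 stood apart in 5 of them: photoreceptor markers summed to 1379 RPKM, ninaE to 1205 RPKM, Arr2 to 771 RPKM and gut markers to 36.2 RPKM, and Fad2 was at 0.019 RPKM where the other brain libraries had 0. Fat body library 5 was high in fat body markers (91731 RPKM in sum), Yp1 (44812 RPKM), the share of reads on yolk proteins (13.7%) and Drs (1579 RPKM), and held 0.075 RPKM of npf and 0.027 RPKM of ninaE. Fat body library 4 was low in genes with 1 to 3 reads (401) and in genes with any read (8527). Fat body library 1 was high in Fad2 (1669.6 RPKM) and fat body library 2 in Gad1 (3.12 RPKM). In brain library 5 osk stood at 0.008 RPKM, where the others had 0. The cause of these values was not tested.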

How the results depend on the processing

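Alternatives were followed for 174 of the named genes. Of these, 146 kept their direction and their side of the threshold in every alternative in which they passed the filter. The call was lost in some for 19, and the sign changed in some for 7. Not all were tested in each alternative: with a mean RPKM of at least 5, 171 were tested and kept both. The medians of 9 of 43 lists changed sign in some alternative. The counts moved most within libraries 4 and 5, where 4613 genes were called and 1400 were higher in the fat body, and with quantile normalization, where 3968 were higher in the fat body. Leaving out 1 library gave 6550 to 7251 genes called, 2343 to 2613 higher in the fat body and 4143 to 4686 higher in the brain. Without brain libraries 4 and 5, an alternative chosen after seeing the data, 2313 genes were higher in the fat body and 3869 in the brain. Replicate numbers are shared between the tissues, and the labels do not say whether same-numbered libraries came from the same flies. The deviations of same-numbered libraries correlated at -0.18, 0.09, 0.15, -0.09 and 0.05, and those of differently numbered libraries at -0.30 to 0.25. Such correlations cannot decide whether the libraries were paired, since a shared origin need not show in them. With a replicate block 6692 genes were called, 2424 higher in the fat body and 4268 higher in the brain. The interaction of tissue and diet called 0 genes in every alternative (also with the replicate block), with 229 to 1019 genes at an unadjusted p under 0.05. Signs changed for sesB (0.14, median-ratio rescaling), Fer2LCH (-0.17) and RpL29 (-0.67) with quantile normalization, InR (0.35 with quantile normalization, 0.063 within libraries 1 to 3, 0.12 without fat body libraries 4 and 5) and Lsp2 (0.63 with quantile normalization, 0.22 without brain libraries 4 and 5, and -0.95 to 0.13 over the fits that left out 1 library), InR and Lsp2 passing the threshold in none of these. The sign of grass turned within libraries 4 and 5 (-0.30), and that of Gr43a with median-ratio rescaling (0.020), with quantile normalization (0.71) and within libraries 4 and 5 (0.25); over the fits that left out 1 library Gr43a ran from -0.52 to 0.050. Within libraries 4 and 5, with 2 libraries a tissue, the calls of Tsf1, Mio, Vha68-2, Vha100-2, cry, Cyt-c-p, Hsp26, Rpn5, rogdi and Jon65Aiv were lost with no change of sign. Cyt-c-p also missed the threshold with median-ratio rescaling (-0.11), and Jon65Aiv without fat body libraries 4 and 5 (2.87). The cause was not tested. The shallower fat body libraries limit genes near 0.280 RPKM.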
